A study of Homo sapiens with 3 samples.

Results

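The Hedgehog pathway genes SHH, PTCH1, HHIP, SMO, SUFU, GLI1, GLI2 and GLI3 were chosen by gene name, 8 of the 58735 annotated genes, and described across 3 established human prostate cancer cell lines. The choice was made with earlier results of these data known. RNA sequencing had been done once for each line, so there were no replicates. PC3, a line from a bone metastasis, and DU145, a line from a brain metastasis, stood for castration-resistant cancer in the series design. LNCAP, derived from a metastasis in a lymph node, stood for the androgen-dependent disease. No line carried a treatment in the labels, all were kept with 10% serum, and the labels do not say which of several media each line received. Each line is a single tumour-derived culture without stroma, so a difference between lines is a difference between 3 cultures.

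Hedgehog signalling begins when a secreted ligand such as SHH binds the receptor PTCH1, which otherwise keeps the membrane protein SMO inactive. Active SMO, acting at the primary cilium, frees the GLI transcription factors from their cytoplasmic inhibitor SUFU. GLI2 is the main activator, GLI3 is largely cleaved into a repressor, and GLI1 is an activator that is itself a target gene of the pathway. In the developing prostate the epithelium makes SHH and the neighbouring stroma responds to it. Only RNA was measured, so GLI cleavage and ligand protein were not.

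The sequences of 4 gene starts follow, of the receptor, a factor, the transducer and the decoy, each a gene whose ratio passed 4-fold between at least 1 pair of lines. They are the RefSeq windows (GRCh38.p14) from 250 bases before to 50 after a transcript start, written 5′ to 3′ on the strand of the gene. Capitals mark the letters TGGGTGGTC, which is the GLI recognition motif GACCACCCA read on the other strand. The PTCH1 window lies at chr9:95509217-95509516 on the minus strand, GLI2 at chr2:120735618-120735917, SMO at chr7:129188383-129188682 and HHIP at chr4:144645906-144646205, the last 3 on the plus strand.
PTCH1: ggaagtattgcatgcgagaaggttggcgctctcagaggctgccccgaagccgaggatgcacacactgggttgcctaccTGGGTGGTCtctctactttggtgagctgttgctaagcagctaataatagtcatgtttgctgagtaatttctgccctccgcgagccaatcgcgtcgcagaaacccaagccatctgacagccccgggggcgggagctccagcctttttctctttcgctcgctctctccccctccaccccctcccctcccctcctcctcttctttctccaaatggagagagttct
GLI2: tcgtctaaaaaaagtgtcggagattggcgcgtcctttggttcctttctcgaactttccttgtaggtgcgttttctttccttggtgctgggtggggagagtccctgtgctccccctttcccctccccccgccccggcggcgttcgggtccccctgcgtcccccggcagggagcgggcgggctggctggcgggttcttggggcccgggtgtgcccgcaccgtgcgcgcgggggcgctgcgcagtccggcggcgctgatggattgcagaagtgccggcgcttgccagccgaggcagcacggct
SMO: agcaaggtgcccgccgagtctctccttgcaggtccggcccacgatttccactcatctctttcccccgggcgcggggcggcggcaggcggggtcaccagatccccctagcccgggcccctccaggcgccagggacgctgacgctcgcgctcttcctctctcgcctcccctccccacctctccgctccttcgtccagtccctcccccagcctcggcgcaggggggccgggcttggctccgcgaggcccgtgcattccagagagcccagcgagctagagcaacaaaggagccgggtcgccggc
HHIP: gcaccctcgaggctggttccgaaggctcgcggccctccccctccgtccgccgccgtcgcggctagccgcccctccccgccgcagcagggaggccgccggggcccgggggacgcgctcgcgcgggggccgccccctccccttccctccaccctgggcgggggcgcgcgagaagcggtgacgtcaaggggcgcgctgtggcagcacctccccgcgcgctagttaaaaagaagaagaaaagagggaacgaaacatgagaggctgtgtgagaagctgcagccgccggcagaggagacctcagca

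Windows were matched by symbol for 6 of the 8 genes, SHH, PTCH1, HHIP, SMO, SUFU and GLI2. GLI1 and GLI3 were not matched. Those 6 genes had 11 windows, since PTCH1 had 5 transcript starts and GLI2 had 2. The motif, searched on both strands with no mismatch, was in 1 of the 11 windows. That window belongs to a PTCH1 start at position 95509266 of chromosome 9, inside the annotated gene, and the motif begins 172 bases before it. Of all 35116 promoter windows, 83 held the motif, or 0.236%. A match describes these letters and is not a measured binding site. The windows of HHIP (72.7% G and C) and SMO (72%) and the first GLI2 window (68.3%) were richer in G and C than the median window (58.7%), while the SHH window stood at 43.3%.

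The libraries held 15319045 counts in PC3, 15878546 in DU145 and 15393103 in LNCAP. Levels are given as normalised CPM, the count over the TMM-scaled library total, with the 95% exact Poisson interval of the count. Because TMM scaling does not correct for gene length, genes are compared with each other only on the deposited FPKM. For bounds and figures a count of 0 was set at 3 counts, which is 0.196 CPM in PC3, 0.191 CPM in DU145 and 0.192 CPM in LNCAP. The exact 95% interval of a count of 0 is wider and reaches 3.69 counts, or 0.236 CPM in LNCAP. KLK3, the prostate-specific antigen gene, had 0 counts in PC3 and DU145 and 35507 in LNCAP. The epithelial genes KRT8, KRT18 and EPCAM were read in all 3 libraries, with summed levels of 455, 1608 and 738 CPM in PC3, DU145 and LNCAP. Of 6 fibroblast markers, 2, 3 and 2 had no counts in PC3, DU145 and LNCAP, and their sums were 52.1, 10.1 and 35.5 CPM. Of that list LUM was at 0 in each library, DCN at 0 in PC3 and DU145 and at 3 counts in LNCAP. COL1A2 had 4, 8 and 0 counts in PC3, DU145 and LNCAP. Most of the sum came from COL1A1 with 488, 148 and 518 counts and COL3A1 with 239, 2 and 31, followed by PDGFRA with 66, 0 and 3. Endothelial markers summed to 20.1, 0.957 and 9.34 CPM over 3 genes that did not share an order of the lines. PECAM1 had 307, 12 and 0 counts, VWF 1, 0 and 144, and CDH5 0, 3 and 2. Leukocyte markers summed to 0.654, 1.40 and 0.320 CPM over 3 genes. The fibroblast and endothelial sums were highest in PC3, where HHIP and GLI3 were also highest, and their part in those levels was not tested.

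**Figure D1:**
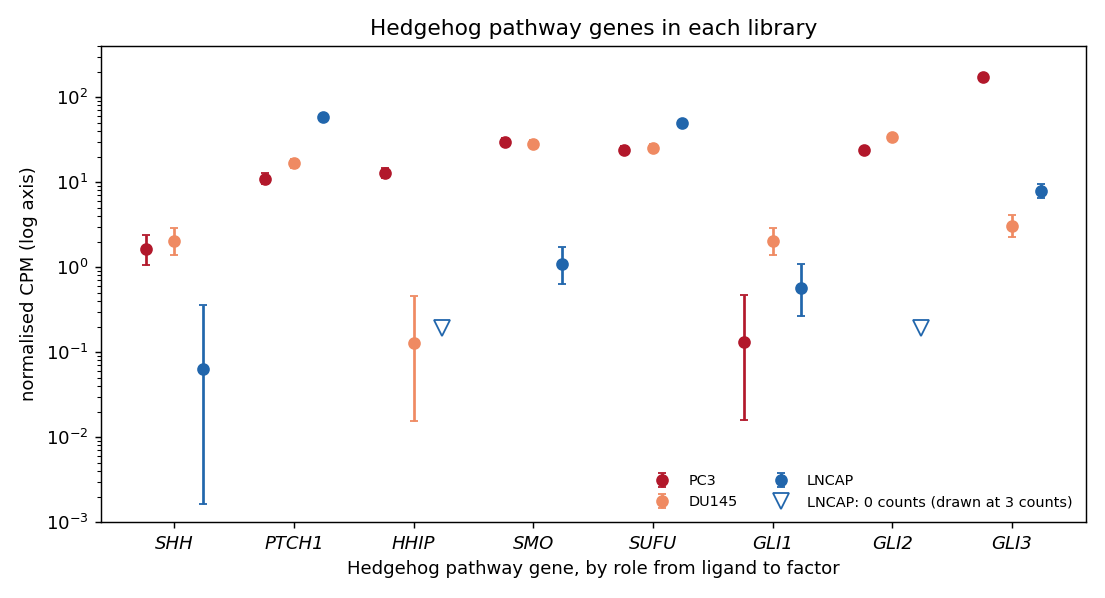
Level of each Hedgehog pathway gene in the PC3, DU145 and LNCAP libraries, as normalised CPM on a log axis, ordered from ligand to transcription factors. Points are single libraries, bars the 95% Poisson interval of the count, and open triangles a count of 0 drawn at 3 counts. SMO and GLI2 are high in PC3 and DU145 and low in LNCAP, PTCH1 and SUFU are highest in LNCAP, and GLI3 is highest in PC3 at 170.5 CPM.

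The ligand gene SHH (ENSG00000164690, chromosome 7, 155799986 to 155812273, minus strand) was scarce everywhere. It had 25 counts in PC3, 32 in DU145 and 1 in LNCAP, or 1.64 CPM (1.06 to 2.41), 2.04 CPM (1.40 to 2.88) and 0.0640 CPM (0.00162 to 0.356). PC3 and DU145 overlapped in their intervals and LNCAP lay below both. On FPKM, SHH stood at 0.322, 0.405 and 0.0125 in PC3, DU145 and LNCAP, at percentiles 17.7, 17.8 and 5.26 of the tested genes of each library. In bulk RNA, fewer cells that read a gene and less of its RNA per cell cannot be told apart.

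PTCH1 (ENSG00000185920, chromosome 9, 95442980 to 95517057, minus strand), the SHH receptor, had 168 counts in PC3, 260 in DU145 and 906 in LNCAP. These are 10.99 CPM (9.39 to 12.8), 16.6 CPM (14.6 to 18.7) and 57.95 CPM (54.2 to 61.9). LNCAP was highest, and none of the 3 intervals overlapped. In a related role HHIP (ENSG00000164161, chromosome 4, 144646021 to 144745271, plus strand), which binds Hedgehog ligands at the cell surface and lowers their supply, had 197 counts in PC3, 2 in DU145 and 0 in LNCAP. Its level was 12.9 CPM (11.2 to 14.8) in PC3 and 0.128 CPM (0.0155 to 0.461) in DU145. HHIP was thus read at more than 3 counts in PC3 alone.

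SMO (ENSG00000128602, chromosome 7, 129188872 to 129213545, plus strand), the membrane protein that PTCH1 inhibits, had 457 counts in PC3, 443 in DU145 and 17 in LNCAP. The levels were 29.9 CPM (27.2 to 32.8), 28.3 CPM (25.7 to 31.0) and 1.09 CPM (0.633 to 1.74). The PC3 and DU145 intervals overlapped, and LNCAP was far below them. SUFU (ENSG00000107882, chromosome 10, 102503987 to 102633535, plus strand), the inhibitor that binds GLI proteins, varied least of the 8 genes. It had 364 counts in PC3, 394 in DU145 and 779 in LNCAP, or 23.8 CPM (21.4 to 26.4), 25.1 CPM (22.7 to 27.7) and 49.8 CPM (46.4 to 53.5). Again the intervals of PC3 and DU145 overlapped, here with LNCAP above them.

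Within a library the balance of these 3 genes differed. On FPKM, SMO stood at 10.5 times PTCH1 in PC3 (95% counting interval 8.75 to 12.6) and 6.56 times in DU145 (5.61 to 7.67), against 0.0722 times in LNCAP (0.0419 to 0.116). The FPKM ratio of SMO to SUFU was 1.999 in PC3 (1.74 to 2.30), 1.79 in DU145 (1.56 to 2.06) and 0.0347 in LNCAP (0.0201 to 0.0560). So the transducer gene stood above its receptor and above the GLI inhibitor in PC3 and DU145, and below both in LNCAP. SUFU was the highest of the 8 genes on FPKM in LNCAP (7.13) and SMO the highest in DU145 (6.55), while GLI3 was the highest in PC3 (15.5).

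Among the GLI factors GLI2 (ENSG00000074047, chromosome 2, 120735623 to 120992653, plus strand) had 361 counts in PC3, 537 in DU145 and 0 in LNCAP. Its level was 23.6 CPM (21.2 to 26.2) in PC3 and 34.3 CPM (31.4 to 37.3) in DU145, with no overlap between those intervals. GLI3 (ENSG00000106571, chromosome 7, 41960950 to 42237870, minus strand) had 2606 counts in PC3, 48 in DU145 and 123 in LNCAP. This is 170.5 CPM (164 to 177) in PC3, 3.06 CPM (2.26 to 4.06) in DU145 and 7.87 CPM (6.54 to 9.39) in LNCAP, and no intervals overlapped. GLI1 (ENSG00000111087, chromosome 12, 57460135 to 57472262, plus strand), the factor commonly read as a pathway target, had 2 counts in PC3, 32 in DU145 and 9 in LNCAP. Its levels of 0.131 CPM (0.0158 to 0.473), 2.04 CPM (1.40 to 2.88) and 0.576 CPM (0.263 to 1.09) made it scarce in each library, with DU145 above the rest.

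The main GLI gene was GLI3 in PC3 and LNCAP and GLI2 in DU145, at sums that differed widely. On summed FPKM of GLI1, GLI2 and GLI3, PC3 had 18.7, DU145 5.43 and LNCAP 0.840. GLI3 made up 82.7% of that sum in PC3, 5.15% in DU145 and 84.0% in LNCAP. GLI2 made up 17.1% in PC3 and 85.9% in DU145, and had no counts in LNCAP. The FPKM ratio of GLI3 to GLI2 was 4.84 in PC3 (4.33 to 5.42) and 0.0599 in DU145 (0.0436 to 0.0806).

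**Figure D2:**
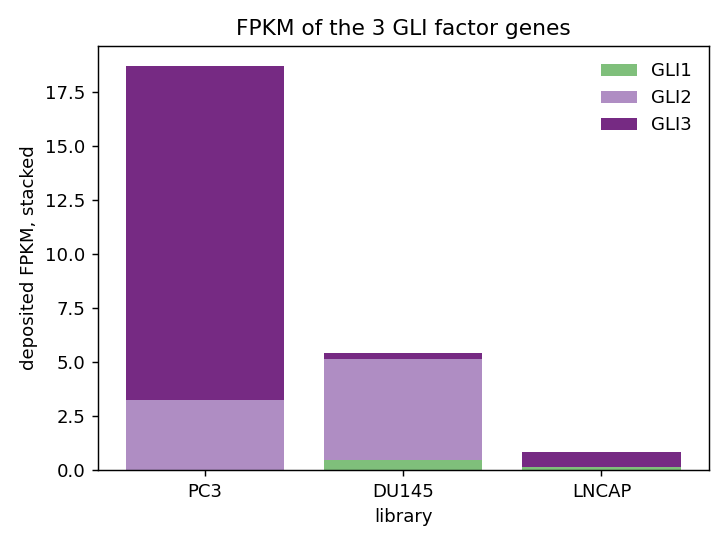
Deposited FPKM of GLI1, GLI2 and GLI3, stacked for the PC3, DU145 and LNCAP libraries, with 1 library a bar and no error bars. The bar reaches 18.7 in PC3, mostly GLI3, and 5.43 in DU145, mostly GLI2, and is 0.840 in LNCAP.

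PC3 was set against LNCAP to ask where these genes stood in a castration-resistant line relative to the androgen-dependent one. The log2 ratio of scaled counts was taken after adding 0.5 counts, and a gene was called where this ratio reached 2 in either direction, a 4-fold difference, with a 95% counting interval that left out a ratio of 1. SHH, HHIP, SMO, GLI2 and GLI3 were called higher in PC3, 5 of 8 genes, where 13.0% of the 18025 tested genes were called higher. PTCH1 was called lower, 1 of 8, where 13.4% of all tested genes were. SHH, HHIP and GLI2 were under 1 CPM in LNCAP and passed the filter only through PC3 or DU145. In this comparison they could be called only higher. The count of 5 and the median below are therefore description, not a test. GLI2 was at least 123-fold higher and HHIP at least 67.2-fold, bounds taken with 3 counts in LNCAP. SMO was 27.5-fold higher (17.0 to 47.6), GLI3 21.7-fold (18.1 to 26.2) and SHH 25.6-fold from a single LNCAP count (4.19 to 1050). PTCH1 was 5.27-fold lower in PC3 (4.47 to 6.25). SUFU was 2.09-fold lower (1.84 to 2.38) and was not called, nor was GLI1, whose 2 and 9 counts gave a ratio 4.4-fold lower with an interval from 0.911 to 41.9. The median log2 ratio was 4.27 over the 8 genes and -0.01 over all tested genes, and the first was unchanged with HHIP and GLI2 at their bounds.

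DU145 was compared with LNCAP for the same question. SHH, SMO and GLI2 were called higher, 3 of 8 genes, beside 13.7% of all tested genes, and 0 were called lower, beside 12.1%. Of these, SHH and GLI2 were under 1 CPM in LNCAP and could again be called in that direction only. GLI2 was at least 179-fold higher, SMO 26.0-fold (16.05 to 45.0) and SHH 31.9-fold from 1 LNCAP count (5.33 to 1300). PTCH1 was 3.49-fold lower (3.04 to 4.03) and SUFU 1.98-fold lower (1.75 to 2.24), both under 4-fold. GLI1 was 3.55-fold higher (1.66 to 8.45) and GLI3 2.57-fold lower (1.83 to 3.66), also under 4-fold. HHIP had too few counts in both libraries for a fold. The median log2 ratio was 2.05 over the 8 genes, or 0.89 with GLI2 at its bound and HHIP at 0, and it was 0.00 over all tested genes. The comparisons of PC3 and of DU145 with LNCAP share the LNCAP library, so their common directions are not separate observations.

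Set directly against each other, PC3 and DU145 differed most in HHIP, GLI3 and the scarce GLI1. HHIP and GLI3 were called higher in PC3, 2 of 8 genes, beside 8.54% of all tested genes, and GLI1 was called lower, 1 of 8, beside 10.6%. HHIP reached 1 CPM in PC3 alone and GLI1 in DU145 alone, so each could be called only in the direction seen. GLI3 was 55.7-fold higher in PC3 (41.9 to 75.7) and HHIP 101-fold, from 2 DU145 counts (27.6 to 840). GLI1 was 15.6-fold lower in PC3, from 2 PC3 counts (3.98 to 134). GLI2 was 1.45-fold lower in PC3 (1.27 to 1.66) and PTCH1 1.51-fold lower (1.24 to 1.84). For 3 genes the interval included 1, with ratios of PC3 to DU145 1.06-fold higher for SMO (0.926 to 1.21), 1.06-fold lower for SUFU (0.913 to 1.22) and 1.25-fold lower for SHH (0.717 to 2.20). The median log2 ratio was -0.20 over the 8 genes and 0 over all tested genes.

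**Figure D3:**
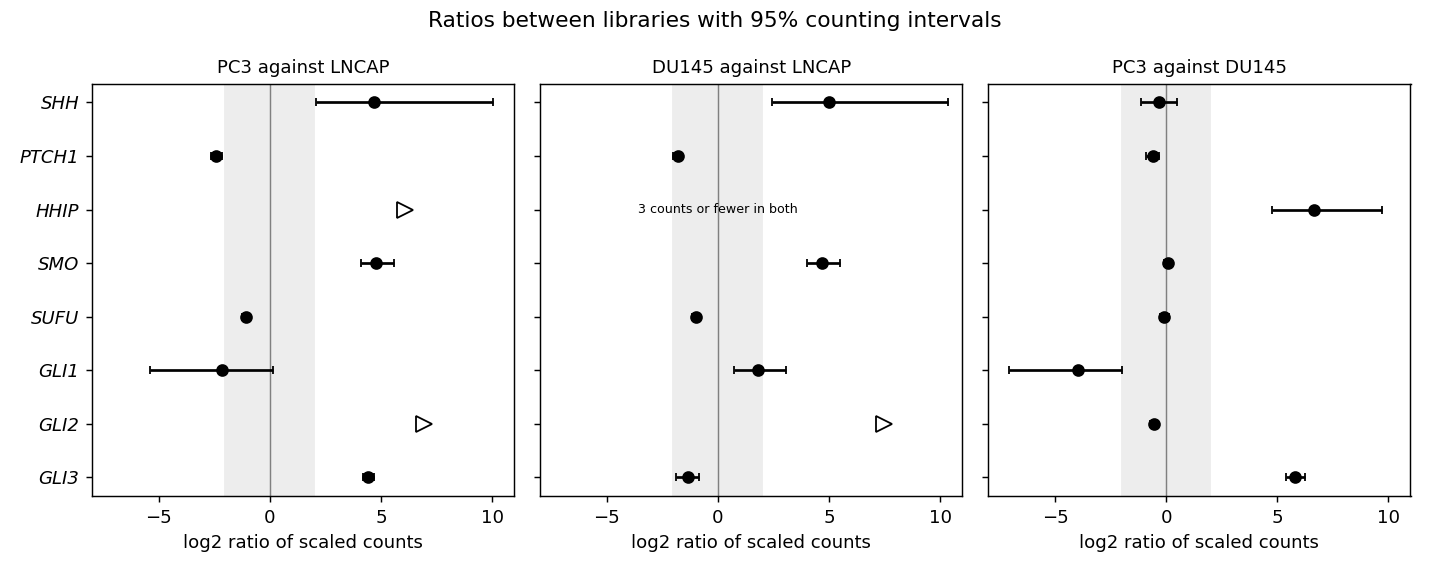
Log2 ratio of scaled counts of each gene in PC3 against LNCAP, DU145 against LNCAP and PC3 against DU145, with bars for the 95% counting interval. No counts were added to the ratios drawn. Arrowheads are lower bounds against a count of 0, and the grey band spans less than 4-fold. SMO and GLI2 lie right of the band in both comparisons with LNCAP and inside it between PC3 and DU145, while GLI3 lies right of it in both comparisons of PC3.

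A fit of PC3 and DU145 as 2 libraries against LNCAP asked which genes set the castration-resistant class apart when the difference between its lines counts as spread. With 1 residual degree of freedom, edgeR's quasi-likelihood test with Benjamini-Hochberg adjustment called 0 of 18025 genes (0%) at an adjusted p of 0.05. At an unadjusted p under 0.05 it held 1746 genes, 9.69%, and 3 of the 8, GLI2, SMO and PTCH1. GLI2 had a fitted log2 difference of 11.8 (edgeR unadjusted p = 0.00158, edgeR adjusted p = 0.266). That difference depends on the prior count, since LNCAP was at 0. GLI2 passed the filter only through PC3 and DU145, so in this fit it could come out only higher. SMO was at 4.73 (edgeR adjusted p = 0.337) and PTCH1 at -2.07 (edgeR adjusted p = 0.482), each with the same direction in PC3 and DU145. For GLI3 the fitted difference was 3.46 (edgeR adjusted p = 0.730), but DU145 stood below LNCAP. DESeq2 called 1298 of the 18025 genes, GLI2 (adjusted p = 2.78e-05) and SMO (adjusted p = 3.74e-05) among them, and limma-voom called 0. SHH and GLI1 had no adjusted p in DESeq2, so it could call neither. These tests compare 3 cultures, and the call for GLI2 and SMO depended on the tool.

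Other genes of the pathway were taken from 5 lists with 55 genes, of which 44 reached 1 CPM in at least 1 library. IHH and DHH, the other Hedgehog ligand genes, were under 1 CPM in each library, as were SCUBE1, SCUBE2, GAS1, LRP2, CCND2, FOXF1, FOXS1, MYCN and NKX2-2. SCUBE3, which encodes a secreted protein of the family that helps release Hedgehog ligands, had 276 counts in PC3, 37 in DU145 and 28 in LNCAP. It was 10.1-fold higher in PC3 than in LNCAP (6.82 to 15.4), the only call among the 3 tested ligand and release genes there, and 7.65-fold higher in PC3 than in DU145 (5.41 to 11.1). HHAT, the acyltransferase that palmitoylates the ligand, had 31 counts in PC3, 174 in DU145 and 51 in LNCAP and was 5.48-fold lower in PC3 than in DU145 (3.72 to 8.31). None of the 3 tested ligand and release genes was called in DU145 against LNCAP. Of all tested genes 13.0% were called higher and 13.4% lower in PC3 against LNCAP, and 13.7% and 12.1% in DU145 against LNCAP. In PC3 against DU145 the shares were 8.54% and 10.6%. With 3 genes the list cannot be read against such shares.

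Of 3 tested receptor and co-receptor genes, 1 was called lower in PC3 and 1 in DU145 against LNCAP, and none was called higher. Of all tested genes 13.4% and 12.1% were called lower, and a list of 3 genes cannot be read against such a share. Both calls were GPC3, a glypican that competes with PTCH1 for ligand. It had 0 counts in PC3, 2 in DU145 and 24 in LNCAP, at least 7.82-fold lower in PC3 and 12.03-fold lower in DU145 from 2 counts (2.99 to 105). GPC3 reached 1 CPM in LNCAP alone, so against LNCAP it could be called only lower. The co-receptor genes CDON (393, 332 and 215 counts) and BOC (65, 87 and 41 counts) were within 4-fold in each pair of lines. The median log2 ratio of the 3 genes was 0.69 in PC3 and 0.62 in DU145 against LNCAP.

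Ciliary transducer genes were called higher for 3 of 13 in PC3 against LNCAP and for 1 of 13 in DU145 against LNCAP, and 0 were called lower in either. Over all tested genes 13.0% and 13.7% were called higher, and 13.4% and 12.1% lower. Whether this list of 13 genes differs from those shares was not tested. EVC2, which encodes a ciliary SMO partner, had 63 counts in PC3, 158 in DU145 and 0 in LNCAP. In PC3 it was at least 21.5-fold higher than in LNCAP, and in DU145 at least 52.5-fold. EVC2 reached 1 CPM in PC3 and DU145 only, so against LNCAP it could be called only higher. It was the 1 call of this list in DU145 against LNCAP. EVC, whose protein forms a complex with that of EVC2, had 584, 448 and 383 counts. KIF7, a ciliary kinesin that regulates GLI proteins, had 773 counts in PC3, 162 in DU145 and 194 in LNCAP. It was 4.08-fold higher in PC3 than in LNCAP (3.48 to 4.80) and 4.89-fold higher than in DU145 (4.12 to 5.83). GPR161, a ciliary receptor that restrains the pathway, had 712, 271 and 116 counts and was 6.28-fold higher in PC3 than in LNCAP (5.15 to 7.71). Median log2 ratios of this list were 0.19 in PC3 and -0.26 in DU145 against LNCAP.

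Kinases and degradation factors of GLI proteins were called for 1 of 16 genes in PC3 and 1 of 16 in DU145 against LNCAP, and for 0 of 16 between PC3 and DU145. Over all tested genes 13.0% were called higher and 13.4% lower in PC3 against LNCAP, and 13.7% and 12.1% in DU145 against LNCAP. Between PC3 and DU145 these shares were 8.54% and 10.6%. Whether the 16 genes differ from such shares was not tested. No gene of the list was called higher. Both calls were PRKACB, a catalytic subunit of protein kinase A, the kinase that primes GLI2 and GLI3 for cleavage. It had 490 counts in PC3, 433 in DU145 and 8336 in LNCAP, 16.6-fold lower in PC3 (15.2 to 18.3) and 19.3-fold lower in DU145 (17.5 to 21.3). PRKACA, the other catalytic subunit gene in the list, had 2511, 2350 and 1205 counts and was under 4-fold in each comparison. On FPKM, PRKACB stood at 4.73 in PC3, 4.10 in DU145 and 77.8 in LNCAP, and PRKACA at 26.5, 24.4 and 12.3. Between PRKACA and PRKACB, the gene with the higher FPKM was therefore PRKACA in PC3 and DU145 and PRKACB in LNCAP. The median log2 ratio of this list was 0.35 in PC3 and 0.34 in DU145 against LNCAP.

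Genes described as Hedgehog targets in other systems went both ways. Of 9 tested, 3 were called higher and 2 lower in PC3 against LNCAP, 3 higher and 2 lower in DU145 against LNCAP, and 2 higher and 3 lower in PC3 against DU145. The shares over all tested genes were 13.0% higher and 13.4% lower, 13.7% and 12.1%, and 8.54% and 10.6% in the same order. Whether the 9 genes differ from those shares was not tested. The 3 called higher were IGFBP6, FOXL1 and BMP4 in both comparisons with LNCAP. Each was under 1 CPM in LNCAP, so against LNCAP it could be called only higher. IGFBP6, a growth factor binding protein gene, had 959 counts in PC3, 575 in DU145 and 0 in LNCAP. In PC3 it was at least 327-fold higher than in LNCAP, and in DU145 at least 191-fold. FOXL1, a forkhead factor gene, had 1522, 50 and 1 counts. It was 1557-fold higher in PC3 than in LNCAP from that 1 count (279 to 61520) and 31.2-fold higher in PC3 than in DU145 (23.6 to 42.2). BMP4, a growth factor gene, had 73, 449 and 5 counts and was 89.6-fold higher in DU145 than in LNCAP (38.1 to 277). HSD11B2, which inactivates cortisol, had 34, 32 and 1855 counts, 53.4-fold lower in PC3 (38.0 to 77.3) and 58.1-fold lower in DU145 (41.0 to 85.2). JAG2, a Notch ligand gene, had 93, 1953 and 2449 counts and was 25.7-fold lower in PC3 than in LNCAP (20.9 to 32.0). BCL2, which encodes an inhibitor of apoptosis, had 187, 21 and 101 counts, 4.82-fold lower in DU145 than in LNCAP (2.99 to 8.12) and 9.13-fold higher in PC3 than in DU145 (5.80 to 15.1). SNAI1 had 16, 90 and 34 counts and was 5.49-fold lower in PC3 than in DU145 (3.20 to 10.0). The median log2 ratio of the 9 genes was 0.99 in PC3 and 1.004 in DU145 against LNCAP.

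**Figure D4:**
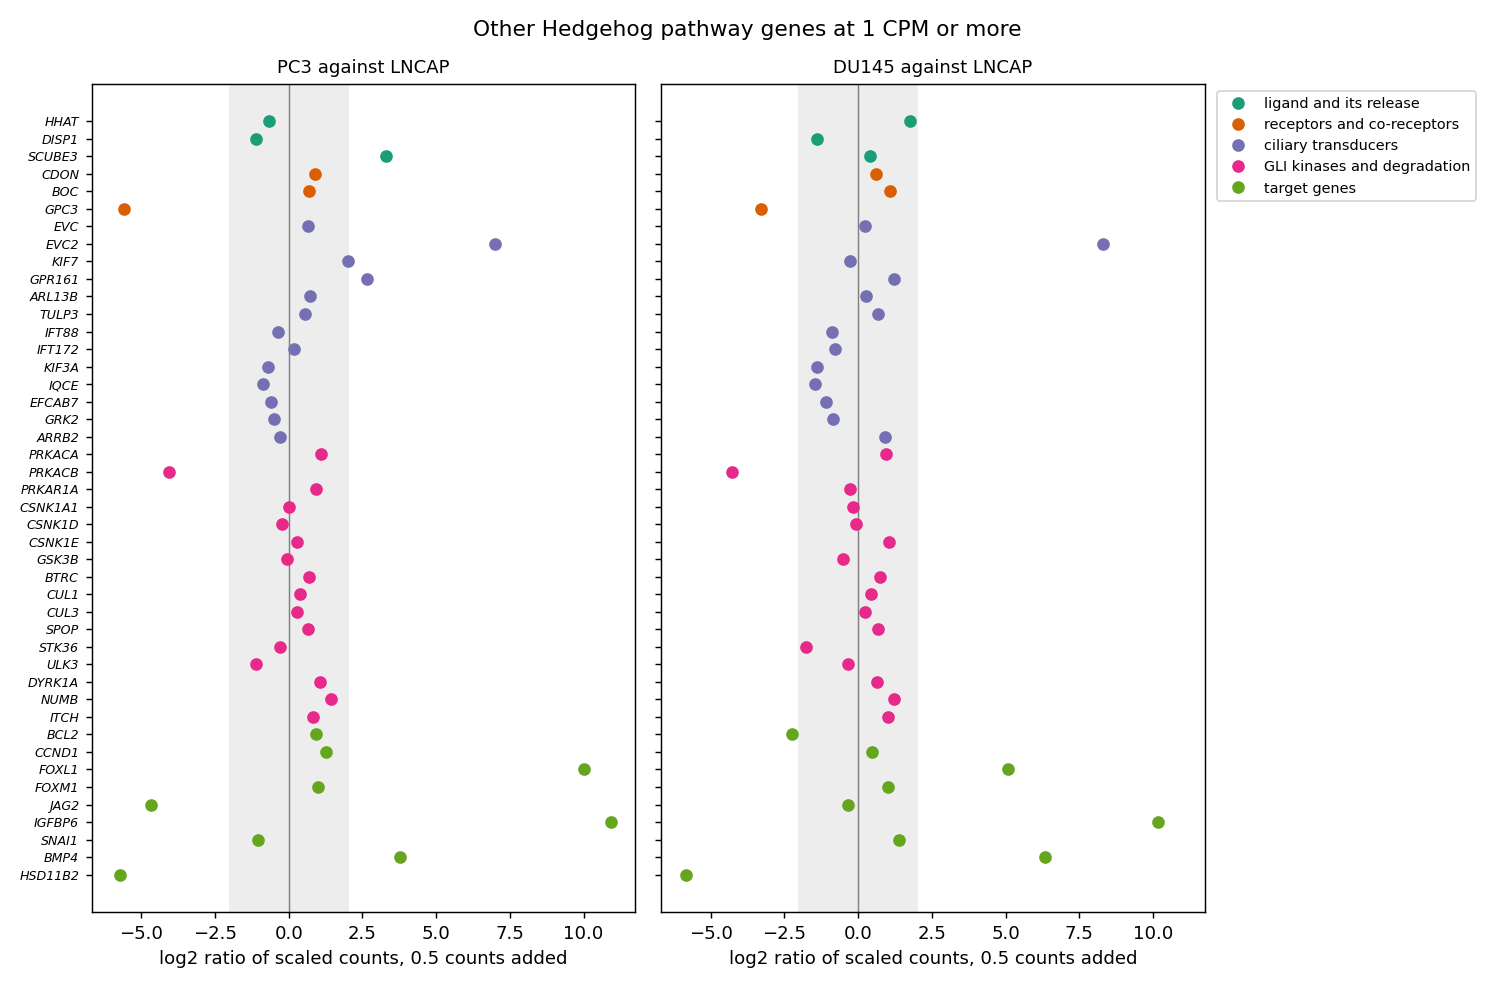
Log2 ratio of scaled counts, with 0.5 counts added, of the 44 tested genes of the wider pathway lists in PC3 against LNCAP and in DU145 against LNCAP, coloured by list. The grey band spans less than 4-fold, and values of genes with no counts in a library, such as EVC2 and IGFBP6, depend on the added count. Most points lie inside the band, PRKACB lies left of it in both panels, and EVC2, FOXL1, IGFBP6 and BMP4 lie right of it in both.

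The gene with the nearest profile in these lists was found for each of the 8, by the largest absolute difference over the 3 libraries between centred log2 levels of CPM with 0.5 added. With 3 points per profile this is a description only, and from 0.0111% to 10.3% of all tested genes were at least as close as the genes named here. For PTCH1 the nearest were GPC3 (0.19), whose 0, 2 and 24 counts make its profile depend on the added 0.5, and DISP1 (0.72). SCUBE3 and KIF7 were nearest to GLI3 (1.48 and 1.91) and to HHIP (1.15 and 1.65). IGFBP6 and EVC2 were nearest to GLI2 (0.89 and 1.37), and EVC2 and BMP4 to SMO (0.78 and 1.37). SUFU was nearest to DISP1 (0.23) and GRK2 (0.32), and SHH to NUMB (0.48) and PRKACA (0.68). GLI1 was nearest to SNAI1 (0.01) and HHAT (0.19), on few counts of GLI1. SHH, HHIP, GLI1, GLI2, IGFBP6, EVC2 and BMP4 were under 1 CPM in LNCAP, so their profiles also depend on the added 0.5.

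The nearest protein-coding gene on each side was read as local context. Genes of activin and inhibin beta subunits lie next to each GLI gene: INHBE 854 bases before GLI1, INHBB 383814 bases before GLI2 and INHBA 255115 bases from GLI3. INHBA had 3010 counts in PC3, 2 in DU145 and 4 in LNCAP, 770-fold higher in PC3 than in LNCAP (300.3 to 2826) and 1543-fold higher than in DU145 from 2 counts (427 to 12750). Like GLI3, then, it was high in PC3. INHBB had 2892, 2 and 65 counts, 45.5-fold higher in PC3 than in LNCAP (35.6 to 59.1) and 32.6-fold lower in DU145 than in LNCAP, from 2 counts (8.66 to 275). It differed from GLI2, which was high in PC3 and DU145 alike. INHBE had 39, 11 and 5 counts and was 7.98-fold higher in PC3 than in LNCAP (3.14 to 25.9), whereas GLI1 was lowest in PC3. On the far side of GLI2, TFCP2L1 had 4, 137 and 2 counts. The coding genes next to SMO (TSPAN33 and AHCYL2), to SUFU (ACTR1A and TRIM8), to PTCH1 (FANCC and ERCC6L2) and to SHH (RBM33 and RNF32) were called in no pair of lines.

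Gene models that overlap the 8 genes had few counts. HHIP-AS1, a non-coding gene that starts inside HHIP on the other strand, had 44 counts in PC3, 2 in DU145 and 0 in LNCAP, the same order as HHIP with 197, 2 and 0. It was at least 15-fold higher in PC3 than in LNCAP and 22.5-fold higher than in DU145 from 2 counts (5.88 to 192). Whether the counting used strand is not given in the sources used here, so reads of HHIP and HHIP-AS1 in their overlap cannot be told apart. Over PTCH1 the 3 antisense models had at most 11 counts in a library. ARHGAP9, whose end overlaps that of GLI1, had 9, 8 and 6 counts in PC3, DU145 and LNCAP, and the antisense model at the end of SMO had 8, 3 and 0. The lincRNA AC017033.1 within GLI2 had 1, 8 and 0.

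**Figure D5:**
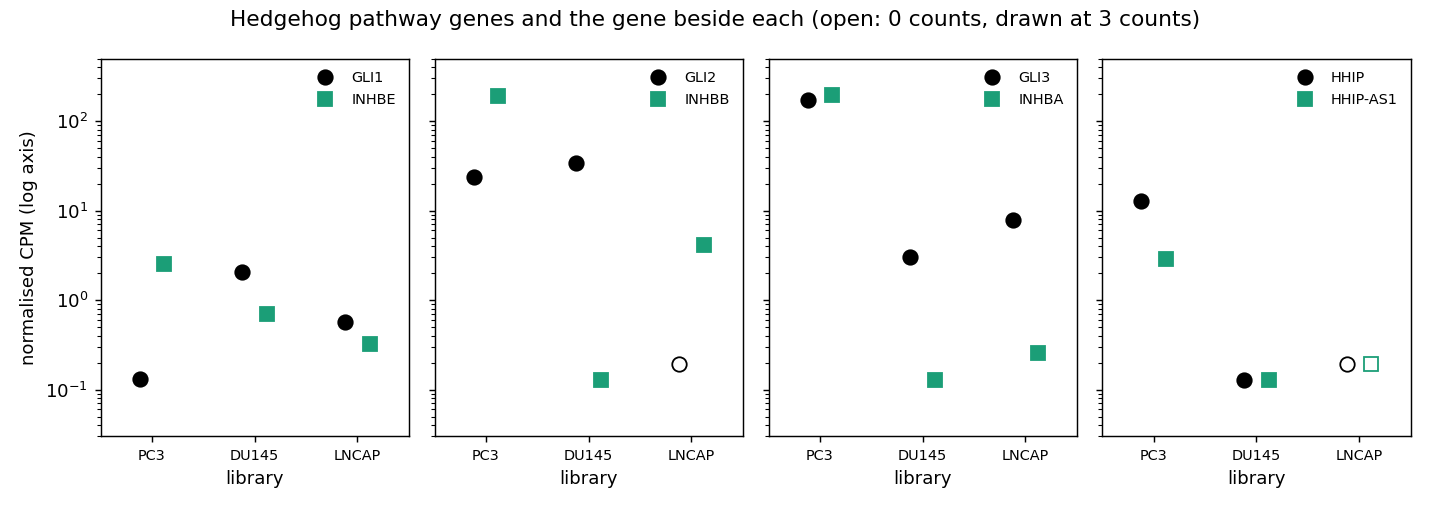
Normalised CPM on a log axis of GLI1 with INHBE, GLI2 with INHBB, GLI3 with INHBA and HHIP with HHIP-AS1 in the PC3, DU145 and LNCAP libraries. Circles are the Hedgehog genes, squares the gene beside each, and open symbols a count of 0 drawn at 3 counts. GLI3 and INHBA are both highest in PC3, at 170.5 and 197 CPM, and HHIP and HHIP-AS1 are likewise highest in PC3.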

How the data were processed

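RNA had been extracted with TRIzol and a column kit, per the labels' protocols, and each line had 1 library. The authors deposited, for each library, raw read counts per gene and FPKM values per gene. The deposited FPKM of a gene was its count over its length times a factor fixed within each library, and so carries no information beyond the counts. Per the submitters' processing notes the tools were TopHat2 2.0.9 and Bowtie2 2.0.6, and Cuffdiff 2.1.1 with Cufflinks 2.1.1. Which program counted, whether by strand and on which genome build, is not given in the sources used here. The coordinates of the 8 genes equalled those of GENCODE release 29 (GRCh38).

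The 18025 genes that reached 1 CPM in any library were tested, and all 8 passed. Where only 1 library of a pair reached 1 CPM, a call could go only towards that library. Counts were scaled by TMM on these genes (edgeR 4.0.16, R 4.3.3; factors 0.998, 0.987 and 1.02 in PC3, DU145 and LNCAP). Ratios have exact conditional binomial (Clopper-Pearson) 95% intervals (Python 3.11.15, scipy 1.17.1). A fold against 0 is a bound with 3 counts in that library. It takes the other count without error, so it is not a 95% limit. Without molecular identifiers, PCR copies count as separate reads, so intervals cover counting error only. Intervals and bounds compare libraries, not classes. The class fit used edgeR across all tested genes, with DESeq2 1.42.0 and limma 3.58.1 as alternatives. The 8 genes and the lists were chosen with earlier results of these data known. From each list, up to 3 called genes each way and pair are named, ranked by the interval bound nearest to 1, and the 2 nearest profiles for each of the 8; CDON, BOC, EVC, the genes under 1 CPM, neighbouring and overlapping genes were named after their values were seen. A gene of the receptor list is not reported here, and the list's counts and median leave it out.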

Additional observations from a re-analysis of the deposited data

Results flagged for a closer look

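GLI3 moved in opposite directions from LNCAP in the 2 castration-resistant lines. Its log2 ratio was 4.43 in PC3 against LNCAP and -1.35 in DU145 against LNCAP, with counting intervals that excluded a ratio of 1 in both. With 1 library per line the difference between the lines' effects was not tested against variation between cultures.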

How the results depend on the processing

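With DESeq2 size factors, library totals, no filter on low counts or 5 added counts, the numbers of the 8 genes called, and of all genes called, stayed within 1.5 times in each pair of lines. With 1 added to FPKM, 3 of the 8 were called higher and 0 lower in PC3 against LNCAP (908 and 746 of all genes), 1 higher and 0 lower in PC3 against DU145 (474 and 523), and 2 higher and 0 lower in DU145 against LNCAP (887 and 665). The calls lost were SHH, PTCH1 and HHIP in PC3 and SHH in DU145 against LNCAP, and HHIP and GLI1 in PC3 against DU145. The added 1 exceeds the FPKM of SHH and GLI1 in each library. At a 2-fold threshold 5 of the 8 were higher and 2 lower in PC3 against LNCAP, and 4 higher and 2 lower in DU145 against LNCAP. In PC3 against DU145 2 were higher and 1 lower. Of the 18025 tested genes, those called higher and lower numbered 4076 and 4247 in PC3 against LNCAP and 4119 and 4169 in DU145 against LNCAP. They numbered 3335 and 3479 in PC3 against DU145. In the class fit DESeq2 called 1298 of the 18025 tested genes and 2 of the 8, where edgeR called 0. SHH and GLI1 had no adjusted p in DESeq2. The cause of the difference between the tools was not tested. No direction of a called gene reversed. Without PC3 the class value of GLI3 became -1.35, and without DU145 that of GLI1 became -1.90, each a ratio of 1 library to 1 with no test. No paired analysis was possible because each line has 1 library. Depth limits SHH, HHIP, GLI1 and GLI2, which had at most 3 counts in at least 1 library.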
